A study of Mus musculus with 4 samples.

Results

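The Bcl2 family decides whether a cell commits to the mitochondrial route of cell death. The 10 genes considered were Bcl2, Bcl2l1, Bcl2l2, Mcl1, Bax, Bak1, Bid, Bad, Bcl2l11 and Bbc3, and every array row that the platform annotation gave to exactly 1 of them was kept. Such a row existed for 9 of the 10, each with 1 row, out of 19935 genes named in this way; Bax was not analysed here. Hair follicle stem cells of the bulge were compared between mice treated with CSA (100 mg/kg in the peritoneum for 3 days) and mice treated with vehicle over the same time. All mice were male CD-1 animals at postnatal day 56, in the second resting phase of the hair cycle, and the sort from skin took cells positive for CD34 and for alpha6 integrin. CSA is not written out in the labels; calcineurin studies use these letters for cyclosporine A, an inhibitor of that phosphatase. No genetic change is given for either group, nor is the number of mice behind a sample.

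In mammals the pro-survival proteins of the family hold the effector proteins Bax and Bak1 in check. The BH3-only proteins, named after the short domain they share, relieve that restraint or activate the effectors directly, and the effectors then open the outer mitochondrial membrane and release cytochrome c. In the follicle the family is best known from mice without Bcl2, whose hair turns grey because the pigment cell lineage of the bulge region is lost. Calcineurin itself can remove phosphate from Bad protein, an event that a measurement of RNA does not record.

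RNA was measured on 4 one-colour arrays, 2 per group, in a table of 28815 rows. The values are on a log scale taken as log2, and the authors had centred every row on an unstated baseline. A value therefore tells how far an array stood from that row's baseline, and levels of different genes cannot be set against each other. Array medians over all rows lay between -0.02 and 0.06. The SD over all rows lay between 0.37 and 0.47 and was largest on vehicle replicate 1. No row of the table passed the test: limma called 0 of 28815 rows at an adjusted p under 0.05 (0% of rows, smallest adjusted p 1.00), and 845 rows (2.93%) had an unadjusted p under 0.05, against 801 (2.78%) by an ordinary test without moderation. For a single row, an exact two-sided permutation test of 2 arrays against 2 cannot go below p = 0.333.

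Members of the family differed in both directions between CSA and vehicle. Bcl2 was lower on both CSA arrays than on both vehicle arrays, Bcl2l11 stood high on 1 CSA array, Bak1 was higher in mean in CSA with overlapping groups, and the other pro-survival genes lay close together on all arrays. Of the 9 genes 5 had a higher and 4 a lower mean in CSA, with a median difference of 0.14 (log2, CSA minus vehicle), where the median over all 28815 rows was -0.04. None of the 9 passed limma's test over all rows (0 of 9, adjusted p = 1.00 for each), and 1 of them, Bcl2, had an unadjusted p under 0.05 (2.93% of all rows did). The groups did not overlap for 4 of the 9 (26.6% of all rows), and 1 of the 9 was in addition at least 1.5-fold apart (5.57% of all rows, and 1.96% in the direction of lower values in CSA). A difference of 0.58 on the log2 scale corresponds to that fold.

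**Figure D1:**
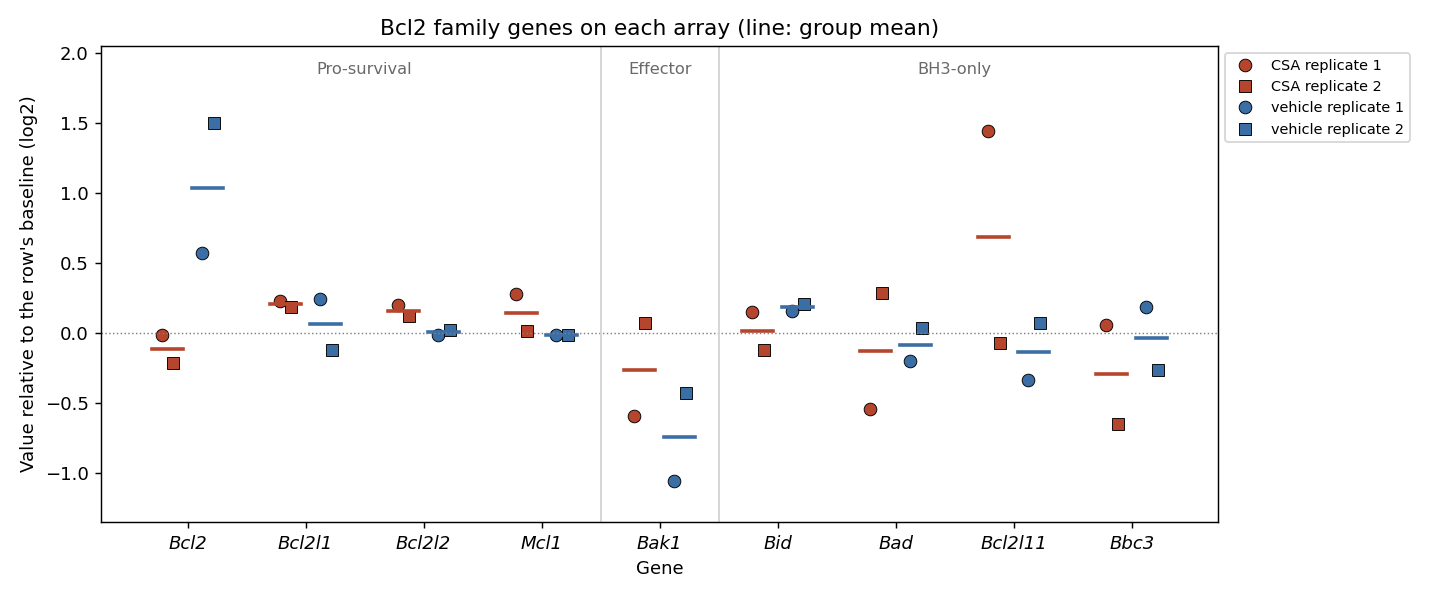
The value of each Bcl2 family gene relative to its row's baseline (vertical axis, log2) is plotted for the 2 CSA arrays (red, left) and the 2 vehicle arrays (blue, right), with circles for replicate 1, squares for replicate 2 and lines for group means. Bcl2 separates the groups, with CSA at -0.02 and -0.21 and vehicle at 0.57 and 1.501, and Bcl2l11 has 1 high point at 1.44 on CSA replicate 1.

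Bcl2, the founding pro-survival member, had values of -0.02 and -0.21 in the CSA samples, against 0.57 and 1.501 in the vehicle samples. Both CSA arrays lay below both vehicle arrays, and the vehicle arrays were farther from each other than the CSA arrays were. The group means were -0.11 ± 0.14 in CSA and 1.04 ± 0.66 in vehicle (SD, n = 2 each), a log2 difference of -1.15 ± 0.37 (limma's moderated standard error, as for every difference after ± below), which is 0.451 of the vehicle level. The 95% interval of the difference was -2.18 to -0.12, the unadjusted p from limma was 0.0364 and its adjusted p was 1.00. By the size of its difference the row was number 444 of 28815, and 0.607% of rows had a difference as low or lower. The difference came to -0.68 without vehicle replicate 2 and to -1.61 without vehicle replicate 1.

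The 250 bases before the RefSeq start of Bcl2 are shown because this row separated the groups and NFAT factors act downstream of calcineurin. The stretch is chr1:106714291-106714540 on the minus strand of GRCm38.p6, printed 5′ to 3′. Capitals mark the NFAT core motif GGAAA, searched on both strands together with the FoxO motif GTAAACA, with which no match overlapped.

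Bcl2: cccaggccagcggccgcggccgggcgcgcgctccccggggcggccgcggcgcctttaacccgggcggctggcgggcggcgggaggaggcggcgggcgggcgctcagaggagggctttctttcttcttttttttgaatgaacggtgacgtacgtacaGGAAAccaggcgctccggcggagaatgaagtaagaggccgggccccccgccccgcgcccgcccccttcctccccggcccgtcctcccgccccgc

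The capitals begin 94 bases before the start, and the stretch held no FoxO match. With GGAAA present in 55.6% of the 32851 RefSeq promoter stretches of the same length, a match of this kind is common. Among all 15 such stretches listed for the 9 genes 10 held it (66.7%). The stretch before Bcl2 was 74.8% G and C, against a median of 52.4% over all promoters.

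Markers of the sorted cells and of other skin cells were read on the same arrays. Cd34, the surface marker used for the sort, was 1.75 and 3.60 in CSA, with 4.05 and 4.25 in vehicle, so that, as for Bcl2, both CSA arrays were below both vehicle arrays. Lhx2, a transcription factor of bulge cells, was 0.88 and 1.42 in CSA, with 1.39 and 2.03 in vehicle. Itga6, the integrin of the sort, was -0.70 and -0.53 in CSA, with -0.9995 and 0.08 in vehicle. Of the 10 bulge markers 6 were, like Bcl2, highest on vehicle replicate 2 (Cd34, Itga6, Krt5, Krt15, Lhx2 and Sox9) and 4 on CSA replicate 2 (Krt14, Lgr5, Nfatc1 and Tcf7l1), the array where Bcl2 was lowest. By group means 3 were higher in CSA (Tcf7l1 by 0.34, Krt14 by 0.22 and Nfatc1 by 0.09) and 7 lower. List medians were 0.27 and 1.15 in the CSA samples, against 0.39 and 0.71 in the vehicle samples. CSA replicate 1 was the lowest array for Cd34, Krt5, Krt15, Lgr5, Lhx2, Nfatc1 and Sox9. For Itga6, Krt14 and Tcf7l1 the lowest array was vehicle replicate 1. Lgr5, lower in mean in CSA, was 1.22 and 3.70 in CSA, with 2.70 and 3.02 in vehicle.

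Marker lists of cells outside the bulge compartment were read in the same way. The 6 measured markers of differentiated epidermis were all lower in mean in CSA, with medians of -1.03 and -0.39 in the CSA samples, against 0.43 and -0.36 in the vehicle samples, with the highest median on vehicle replicate 1. Of these 6 genes 4 were at least 1.5-fold lower in CSA without overlap (1.96% of all rows). The differences were -1.77 for Flg2, -1.49 for Krt1, -1.02 for Krt10 and -0.81 for Ivl. All 6 were highest on vehicle replicate 1, whereas Bcl2 was highest on vehicle replicate 2. On vehicle replicates 1 and 2, Flg2 was 2.43 and 0.11, Krt1 0.10 and -2.15, Krt10 0.38 and -0.58, and Ivl 0.12 and -0.32. On CSA replicate 2, the higher CSA array for each of the 4, they were -0.11, -2.31, -0.90 and -0.67 in that order. The 6 melanocyte markers, of the lineage that depends on Bcl2 in mice, had medians of 0.06 and -0.03 in CSA, with 0.09 and -0.02 in vehicle. Leukocyte markers (11 measured) had medians of -0.002 and -0.11 in CSA, with 0.15 and -0.16 in vehicle, fibroblast markers (7) 0.03 and -0.12 in CSA, with 0.11 and -0.04 in vehicle, and endothelial markers (6) -0.02 and -0.09 in CSA, with 0.21 and 0.005 in vehicle. Vehicle replicate 1 was also the highest array for 9 of the 11 leukocyte, 6 of the 7 fibroblast and 5 of the 6 endothelial markers. It was the highest for 1 of the 6 melanocyte markers. Since the values are centred, none of them tells whether a marker was detected at all. The part of cell makeup in the Bcl2 difference was not tested, and in bulk RNA fewer cells of a type and less RNA per cell cannot be told apart.

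The other pro-survival genes differed by at most 0.16 in their means. Bcl2l1, which encodes Bcl-xL, was 0.23 and 0.18 in the CSA samples, against 0.25 and -0.12 in the vehicle samples. The CSA arrays lay between the vehicle arrays, and the log2 difference of 0.14 ± 0.19 had a 95% interval of -0.38 to 0.67. Bcl2l2, which encodes Bcl-w, was 0.20 and 0.12 in CSA, with -0.01 and 0.02 in vehicle. Here both CSA arrays were above both vehicle arrays, but the difference of 0.15 ± 0.14 was under the 1.5-fold threshold and its interval ran from -0.23 to 0.54.

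Mcl1, whose short-lived protein restrains Bak1, was 0.28 and 0.01 in CSA, with -0.02 and -0.01 in vehicle. The groups were apart by a narrow gap, and CSA replicate 1 set the mean difference of 0.16 ± 0.16 (interval -0.30 to 0.62), which was 0.03 without that array. For these 3 genes the upper bounds of the intervals lay around the 1.5-fold threshold (0.54 to 0.67). The lower bounds (-0.38 to -0.23) were above the measured difference of Bcl2, but the interval of Bcl2 (-2.18 to -0.12) overlapped all 3 intervals. Whether the differences of these genes depart from that of Bcl2 was not tested.

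Bak1 encodes the one effector among the 9 genes analysed here. It was -0.59 and 0.07 in the CSA samples, against -1.06 and -0.43 in the vehicle samples. The groups overlapped, since CSA replicate 1 was below vehicle replicate 2, and in each group the array of replicate 2 was the higher. The means were -0.26 ± 0.47 in CSA and -0.74 ± 0.44 in vehicle (SD, n = 2 each), a difference of 0.48 ± 0.35 with an interval of -0.51 to 1.48. It was 0.15 without CSA replicate 2, 0.17 without vehicle replicate 1, 0.81 without CSA replicate 1 and 0.80 without vehicle replicate 2.

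The distance between an effector and a pro-survival gene was taken array by array. Bax had been chosen for this measure; Bak1 took its place after the values were seen, so the result is a description. Bak1 minus Bcl2 was -0.58 and 0.28 in the CSA samples, against -1.63 and -1.93 in the vehicle samples. Both CSA arrays were above both vehicle arrays, and the means of -0.15 in CSA and -1.78 in vehicle were 1.63 apart on the log2 scale. Each gene has its own unknown baseline, so that only the change of this distance between arrays can be read, and most of it was the Bcl2 difference already given.

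**Figure D2:**
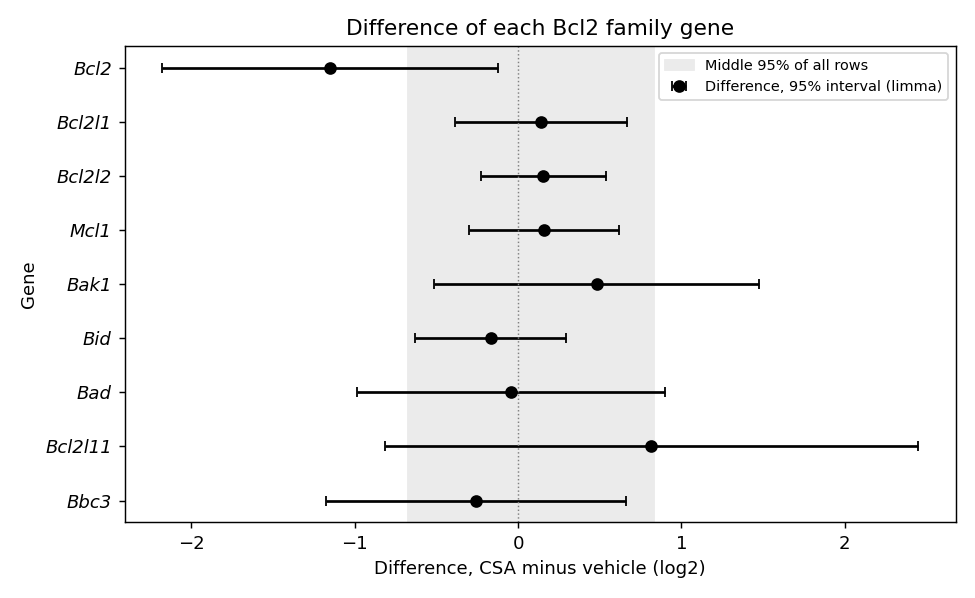
The difference between CSA and vehicle (horizontal axis, log2, CSA minus vehicle) is drawn for each Bcl2 family gene as a point with limma's 95% interval, over a grey band that holds the middle 95% of all 28815 rows. The interval of Bcl2 (-2.18 to -0.12) is to the left of 0 and every other interval spans 0; the point of Bcl2 lies outside the band, which runs from -0.68 to 0.83.

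Bcl2l11 encodes Bim, a BH3-only protein that binds all pro-survival members and whose gene is a known FoxO target. It was 1.44 and -0.07 in the CSA samples, against -0.34 and 0.07 in the vehicle samples. CSA replicate 1 stood far above the other arrays, and CSA replicate 2 lay between the vehicle arrays. The means were 0.69 ± 1.07 in CSA and -0.13 ± 0.29 in vehicle (SD, n = 2 each), and the difference of 0.82 ± 0.58 had an interval from -0.81 to 2.45. Without CSA replicate 1 it was 0.06, and without CSA replicate 2 it was 1.58. The values of CSA replicate 2 and vehicle replicate 2 were mirror images around 0 (within 2e-06), as were those of a pair of arrays for Mcl1 and for 18.7% of all rows. For Bcl2l11 and Mcl1 the mirrored values were the middle ones of the 4. The median of such a row is 0, as it was for 11.4% of all rows.

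The 250 bases before the first of 2 RefSeq starts of Bcl2l11 are shown because of this FoxO link, with the FoxO motif GTAAACA in capitals. They span chr2:128125788-128126037 on the plus strand of GRCm38.p6.

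Bcl2l11: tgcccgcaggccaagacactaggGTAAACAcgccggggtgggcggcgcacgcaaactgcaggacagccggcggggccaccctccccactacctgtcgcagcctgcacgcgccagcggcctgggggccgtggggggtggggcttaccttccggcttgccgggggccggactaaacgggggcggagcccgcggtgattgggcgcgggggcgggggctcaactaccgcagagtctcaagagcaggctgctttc

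The match begins 227 bases before the start, and the stretch held no GGAAA on either strand. GTAAACA was present in 3.17% of all 32851 stretches, and among the 15 of the family in 2, this one and the second of 3 listed for Bbc3. The stretch before the second start of Bcl2l11 held neither motif. On the arrays, Foxo1, a factor that binds this motif, was 1.603 and -0.16 in CSA, with -0.15 and -0.07 in vehicle, so that it too stood high on CSA replicate 1. Its difference was 0.83 ± 0.65, while Foxo3, chosen after its values were seen, was 0.63 and -0.18 in CSA, with 0.56 and 0.18 in vehicle. Trp53inp1, chosen in the same way, also stood high on CSA replicate 1 (2.37 and 0.08 in CSA, with 0.39 and -0.08 in vehicle). A link between Foxo1 and the Bcl2l11 value was not tested.

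Bid, which caspase 8 cleaves to carry a death receptor signal to the mitochondria, was 0.15 and -0.12 in the CSA samples, against 0.16 and 0.21 in the vehicle samples. Both CSA arrays were below both vehicle arrays, replicate 1 by a very small margin, and the difference of -0.17 ± 0.16 had an interval from -0.63 to 0.30. It was -0.30 without CSA replicate 1 and -0.03 without CSA replicate 2. Bad, the BH3-only protein that survival kinases inactivate by phosphorylation, was -0.54 and 0.29 in CSA, with -0.20 and 0.04 in vehicle. The vehicle arrays lay between the CSA arrays, and the difference was -0.04 ± 0.34 (interval -0.99 to 0.90). It turned to 0.37 without CSA replicate 1 and to 0.08 without vehicle replicate 2.

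Bbc3 encodes Puma, a BH3-only protein that p53 induces. It was 0.06 and -0.65 in CSA, with 0.19 and -0.26 in vehicle. The groups overlapped, replicate 1 was the higher array in each, and the difference of -0.26 ± 0.33 (interval -1.18 to 0.66) turned to 0.09 without CSA replicate 2. Over the 9 genes, CSA replicate 1 was the highest array for 3, CSA replicate 2 for 2, vehicle replicate 1 for 2 and vehicle replicate 2 for 2. Vehicle replicate 1 was the lowest array for 4 genes (Bcl2l2, Mcl1, Bak1 and Bcl2l11), CSA replicate 2 for 3, CSA replicate 1 for 1 and vehicle replicate 2 for 1.

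**Figure D3:**
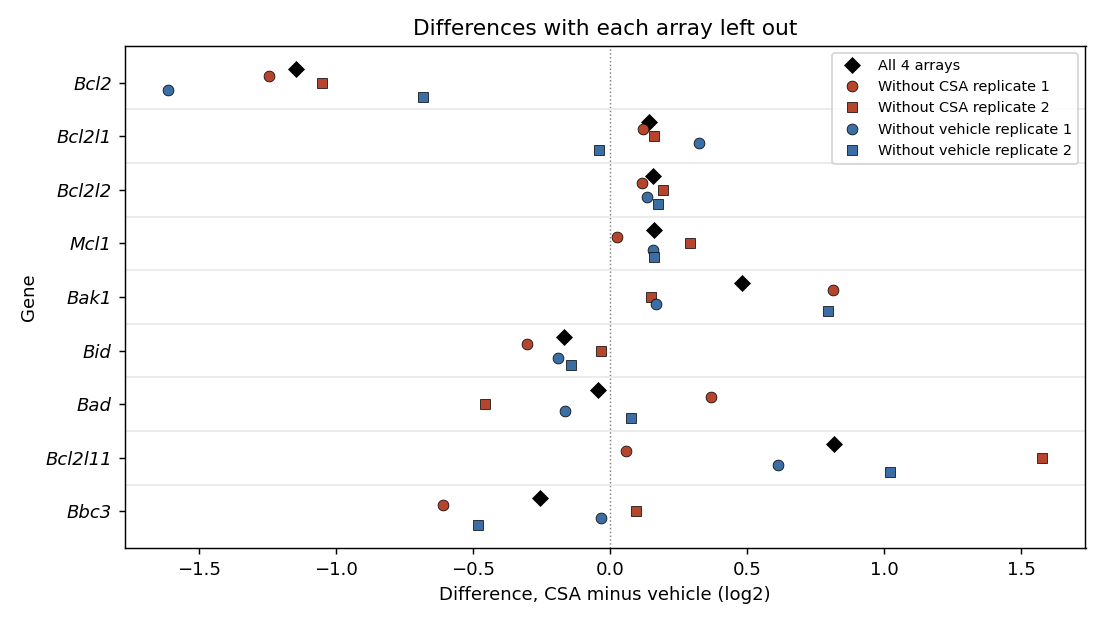
The difference of each Bcl2 family gene (horizontal axis, log2, CSA minus vehicle) is shown with all 4 arrays (black diamonds) and with each array left out (red for a CSA array, blue for a vehicle array; circles for replicate 1, squares for replicate 2). Bcl2 stays below 0 throughout (-1.61 to -0.68), as it must when the groups do not overlap. The difference of Bcl2l11 runs from 0.06 to 1.58, and those of Bcl2l1, Bad and Bbc3 cross 0.

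The other genes of the cell death pathway were read from the same fit. None of them passed limma's test over all rows. Of 15 rows for the remaining Bcl2 family genes 7 were higher and 8 lower in CSA (median -0.01), and 2 were at least 1.5-fold higher without overlap, against 3.62% of all rows in that direction. Both were rows of Bnip3, a mitochondrial protein related to the BH3-only group that hypoxia induces and that takes part in mitophagy. The first was 0.61 and 0.31 in CSA, with -0.65 and -0.28 in vehicle, a difference of 0.92 ± 0.22 (interval 0.31 to 1.53, limma unadjusted p = 0.0141, adjusted p = 1.00). The second was 0.98 and 0.13 in CSA, with -1.81 and -0.12 in vehicle, with 1 low vehicle array (1.52 ± 0.69).

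Bcl2l13, which binds the autophagy machinery at mitochondria, differed by 0.29 ± 0.19 and Bcl2l12 by -0.24 ± 0.15. Pmaip1, which encodes the BH3-only protein Noxa, was -0.09 and -0.28 in CSA, with -0.10 and -0.61 in vehicle. Bmf, another BH3-only gene, was 0.22 and -0.14 in CSA, with 0.18 and -0.19 in vehicle. The groups overlapped for both, with differences of 0.17 ± 0.24 and 0.05 ± 0.23.

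Downstream of the mitochondria, 9 of 12 rows for the apoptosome and caspases were higher and 3 lower in CSA (median 0.29). That median came to -0.09 without CSA replicate 2, 0.64 without CSA replicate 1 and 0.05 without vehicle replicate 1. Cycs, the cytochrome c gene, had 3 rows, with differences of 1.11 ± 0.71, 0.97 ± 0.62 and 0.33 ± 0.30. The first of these was 0.002 and 0.27 in CSA, with -1.94 and -0.009 in vehicle, so that 1 vehicle array stood low; processed copies of this gene in the genome make its rows uncertain. Casp9, the caspase that the apoptosome activates, was -0.11 and -0.21 in CSA, with 0.08 and 0.12 in vehicle, a difference of -0.26 ± 0.14 without overlap. Casp8, the initiator caspase of death receptors, was -1.12 and -0.04 in CSA, with 0.56 and -0.03 in vehicle (-0.85 ± 0.46). Apaf1, the scaffold of the apoptosome, differed by -0.06 ± 0.20.

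The death receptor Fas had the smallest unadjusted p of all rows in these pathway lists. It was -0.24 and -0.30 in the CSA samples, against -1.36 and -1.19 in the vehicle samples, with little spread inside either group. The difference was 1.006 ± 0.15 (interval 0.60 to 1.42, limma unadjusted p = 0.0026, adjusted p = 1.00). Its list of receptors, ligands and adaptors was split, with 5 rows higher and 6 lower (median -0.04); the ligand gene Tnfsf10 differed by -0.38 ± 0.20. The 3 rows of Cflar, which blocks caspase 8 at the receptor, disagreed in sign (0.12 ± 0.23, -0.29 ± 0.19 and 0.33 ± 0.34).

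The 6 rows of inhibitors of apoptosis were 3 higher and 3 lower (median -0.01), and 0 of the 6 had groups that did not overlap, where 26.6% of all rows did not. Xiap, which binds caspases directly, was 0.16 and -0.03 in CSA, with -0.003 and 0.78 in vehicle (-0.32 ± 0.32). Birc3 differed by -0.09 ± 0.17, and the 2 rows of Birc2 by 0.54 ± 0.43 and 0.09 ± 0.37.

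Among 8 rows for p53 and FoxO regulators 3 were higher and 5 lower (median -0.14). Ppp1r13b, a p53 cofactor that favours death genes, was 0.03 and 0.16 in CSA, with 0.65 and 0.46 in vehicle, a difference of -0.46 ± 0.16 (limma unadjusted p = 0.0441, adjusted p = 1.00). Mdm2, the ligase that degrades p53, differed by 0.53 ± 0.42 with overlapping groups.

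Of 21 rows for binding partners and turnover factors 7 were higher and 14 lower (median -0.06, against -0.04 over all rows). The rows came from 14 genes. Tpt1 and Vdac3 had several rows each, and all of these were lower. With 1 row per gene the median of the list was -0.02. Dynll1, the dynein light chain that binds Bim, was -1.603 and 0.02 in CSA, with 0.30 and -0.03 in vehicle. The low array was CSA replicate 1, the array with the highest Bcl2l11 value. Each row of Vdac3 was lowest on that array too, and a link between the Dynll1 and Bcl2l11 values was not tested. Bag4 differed by 0.36 ± 0.18, and both rows of Ywhaz, a 14-3-3 protein of the kind that holds phosphorylated Bad in the cytosol, by -0.17 ± 0.14 and -0.12 ± 0.14.

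Kinases and phosphatases that act on Bad or Bim had 9 rows higher and 3 lower (median 0.10). Akt1, which phosphorylates Bad, was 0.06 and 0.09 in the CSA samples, against -0.33 and -0.25 in the vehicle samples, a difference of 0.36 ± 0.14 with an interval of -0.02 to 0.74. The calcineurin subunit genes Ppp3cc and Ppp3r1 differed by 0.99 ± 0.54 and 0.24 ± 0.20. The groups overlapped for Ppp3cc, which was 0.91 and 0.16 in CSA, with -1.08 and 0.17 in vehicle, so that 1 vehicle array stood low. The catalytic subunit genes Ppp3ca and Ppp3cb, given to complete the subunits of this list and chosen after their values were seen, differed by 0.12 ± 0.18 and -0.06 ± 0.47.

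**Figure D4:**
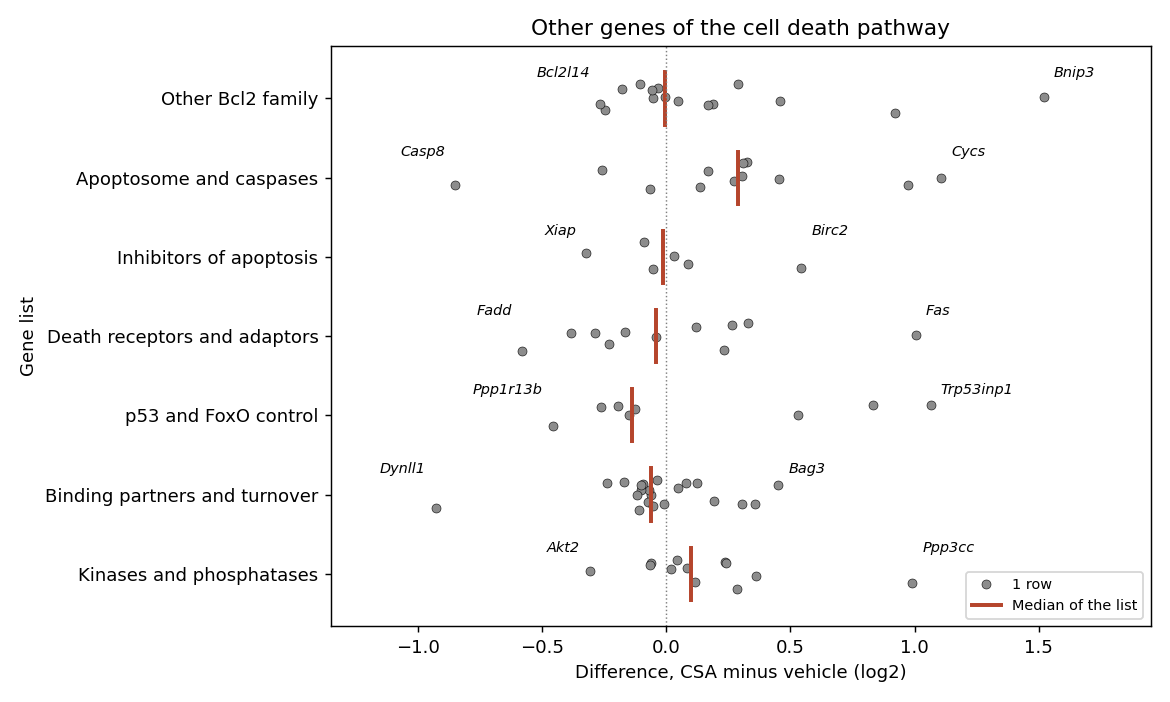
Each point is the difference of 1 array row (horizontal axis, log2, CSA minus vehicle) in 7 lists of other cell death genes, red lines are list medians, and the rows with the highest and lowest difference of each list are named. List medians lie between -0.14 and 0.29, with Bnip3 at 1.52, Fas at 1.006 and Casp8 at -0.85 among the outermost rows.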

How the data were processed

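The deposited values are the authors' log2 values (base taken from their range), centred per row on a baseline that is not given; no source used here states the array software, background correction or normalization. The build mm8 is named in the submitters' processing notes. Groups came from the sample titles, and the design text calls the replicates biological. Of 28815 rows 21780 named 1 gene, 1605 named several and 5430 were not listed.

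All rows were fitted with limma 3.58.1 in R 4.3.3 (lmFit and eBayes without trend, no filter, two-sided), with Benjamini-Hochberg adjustment over all rows and a threshold of 0.05. The script was tested on simulated data. The members and lists were chosen with earlier results of these data known. The text names every member, the 3 genes of each other list with the largest absolute moderated t, and Apaf1, Pmaip1 and Bmf. Foxo3, Trp53inp1, Ppp3ca, Ppp3cb, Tpt1, Vdac3 and the markers singled out were chosen after their values were seen. Bax and Trp53 were not analysed here. Promoter stretches come from RefSeq (GRCm38.p6, matched by symbol for 9 of 9 genes). Signal over background was not used here, and precision is limited by the number of arrays. Alternatives were another variance model, 2 scalings, a filter, 1 row per gene, each array left out and a replicate block.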

Additional observations from a re-analysis of the deposited data

How the results depend on the processing

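Under all 11 alternatives 0 Bcl2 family rows, and 0 of all rows, had an adjusted p under 0.05, by limma or by the ordinary test. By the ordinary test 0 family rows had an unadjusted p under 0.05, against 1 by limma. Bcl2 kept a lower mean in CSA under all 11 (-1.61 to -0.68), but most of these could not have turned its sign. Settings that change only the test or the rows kept leave its difference at -1.15. Because its groups do not overlap, no single array left out can reverse it. The unadjusted p of Bcl2 from limma was 0.0543 with arrays centred on their medians and 0.0264 after quantile normalization. The number of family rows 1.5-fold apart without overlap was 1 with all arrays and between 1 and 3 with an array left out, where 1 array against 2 overlaps less often by itself (7.58% to 15.8% of all rows, against 5.57%). Directions turned for Bad without CSA replicate 1 (0.37) and without vehicle replicate 2 (0.08), for Bbc3 without CSA replicate 2 (0.094) and for Bcl2l1 without vehicle replicate 2 (-0.042). With an array left out Bad lay between -0.46 and 0.37, Bbc3 between -0.61 and 0.094, and Bcl2l1 between -0.042 and 0.32. The filter at the 25th percentile of row means left 6 of the 9 genes, without Bak1, Bad and Bbc3. Row means of centred values do not measure expression level, so the filter does not mark these genes as weakly expressed. Rows with an unadjusted p under 0.05 numbered 845, and between 687 and 2146 with an array left out. With the replicate number as a block 0 family rows passed, 1 was 1.5-fold apart, and 1366 rows had an unadjusted p under 0.05, among the family Bak1 alone (0.0331). The titles give no shared origin for a number, and with 2 pairs a correlation of deviations of 0.216 does not establish pairing. Bax minus Bcl2 was not run, since Bax was not analysed here; Bak1 minus Bcl2, added after seeing the data, was 1.63 with all arrays and 1.20 to 2.06 with an array left out. Of the 7 medians of the other cell death lists 6 changed sign under some alternative; that of kinases and phosphatases stayed between 0.08 and 0.26.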
